A study of Mus musculus with 6 samples.

Results

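Fragments of tRNA-Glu, the transfer RNA that carries glutamate, were examined in 6 small RNA libraries of mouse serum. Members were the sequences that the deposited lists assign to the class tRNA and to a gene with the amino acid Glu in its name. They comprised 21 of 403 listed tRNA gene names. Per library there were 2008 to 3115 distinct Glu sequences, where all distinct tRNA sequences numbered 7542 to 12354. The question put to these libraries was how the choice of library preparation kit changes the tRNA fragments that are read from serum.

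All 6 libraries were made from serum of healthy 129/SVj mice, males and females of 2 to 9 months of age, collected from individual animals. The 3 commercial kits had 2 libraries each and were NEBNext Multiplex Small RNA (New England Biolabs), TruSeq small RNA v2 (Illumina) and TailorMix miRNA v2 (Seqmatic). After PCR amplification all libraries were size-selected at 125 to 153 bp, a length that includes the adaptors. Fragments whose amplified product fell outside this window had little chance to be read. Within each kit the serum carries the number 1 or 2 in the labels, which do not say whether a number marks the same mouse in the 3 kits. All p-values below therefore measure the spread between these libraries only, and fewer molecules in serum and a lower capture by the kit cannot be told apart.

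A tRNA-Glu reads the codons for glutamate in translation. The anticodon CTC pairs with one of these codons and the anticodon TTC with the other, and both kinds of tRNA are made from many nearly identical nuclear genes. Under stress the ribonuclease angiogenin cuts tRNAs in the anticodon loop, which leaves a 5′ piece and a 3′ piece, and 5′ pieces of a few tRNA types are known to circulate in blood. Read lengths and positions within the tRNA were not analysed here, so the reads are called fragments.

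RefSeq lists 20 nuclear tRNA-Glu genes on the GRCm38.p6 assembly, 12 with the anticodon CTC and 8 with TTC, each of 72 bp and spread over 10 chromosomes. In the GENCODE annotation 13 of them are intergenic and 7 lie within the body of another gene, none of these in an exon. The intronic genes include n-TEctc5 within Fcgr3 (chromosome 1, 171064164 to 171064235), n-TEttc4 within Elf1 (chromosome 14, 79481668 to 79481739) and n-TEctc3 within Arrb1 (chromosome 7, 99543900 to 99543971). A cluster of 4 CTC genes spans 38951 bp of chromosome 1, from 171064164 to 171103114, where they lie among genes for tRNA-Gly, tRNA-Asp and tRNA-Leu. The files name 13 CTC and 8 TTC genes by a number without a chromosome, and no name of the files was matched to a RefSeq gene.

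Annotated reads ranged from 5144833 to 26256012 per library, and tRNA reads from 4911281 to 25976737, with NEBNext the deepest and TailorMix the shallowest kit. The counting error of a Glu share was small at this depth, since the 95% Wilson interval reached at most 0.0442 percentage points to either side. Following the labels, both libraries of a kit entered as samples of their own. Their counts were not copies of each other, with a chi-square per degree of freedom over the 21 tRNA types that was 106 for TailorMix, 1571 for NEBNext and 5217 for TruSeq, which does not show whether they came from separate animals. As a check of the labelled tissue, the blood cell miRNAs miR-451a (178 to 6539 reads), miR-16-5p (617 to 11322 reads) and miR-223-3p (142 to 1000 reads) and the liver miRNA miR-122-5p (50 to 9018 reads) were read in every library. No reads were listed under the identifier of miR-486a-5p in any library, which by counting error allows up to 3 reads under that name in each. Other miRNA names were not searched for its sequence, so its absence from the serum is not shown.

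Glu was the leading tRNA type in the NEBNext and TailorMix libraries, where about every other tRNA read belonged to it, and the second type after Val in the TruSeq libraries. It made up 50.9% and 50.7% of tRNA reads with NEBNext, 51.0% and 49.7% with TailorMix, but 30.9% and 25.0% with TruSeq. The NEBNext and TailorMix values overlapped, and both TruSeq values lay below them. Expressed as means, Glu held 50.8% ± 0.144 (SD, n = 2) with NEBNext, 28.0% ± 4.18 (SD, n = 2) with TruSeq and 50.3% ± 0.880 (SD, n = 2) with TailorMix. An exact permutation test (two-sided) of the difference among the 3 kits gave p = 0.2, adjusted to 0.233 over 7 tests, in a design whose smallest possible p is 0.0667. In counts, the Glu reads of the 6 libraries were 13216035 and 8496433 with NEBNext, 3479644 and 2280844 with TruSeq, against 2502946 and 2517908 with TailorMix.

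**Figure D1:**
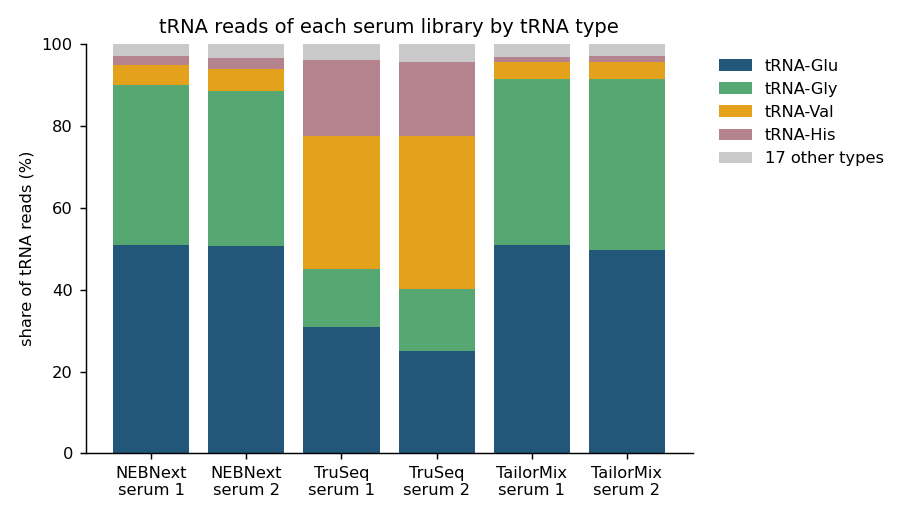
Stacked bars give the share of tRNA reads (%) of tRNA-Glu, tRNA-Gly, tRNA-Val, tRNA-His and all other types in each of the 6 serum libraries. Glu, at the foot of each bar, ends near 50% in the 4 NEBNext and TailorMix libraries and at 30.9% and 25.0% in the TruSeq libraries, where Val takes up 32.5% and 37.3%.

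The lower Glu share with TruSeq stood beside higher shares of Val and His. Val held 4.71% and 5.36% of tRNA reads with NEBNext, 32.5% and 37.3% with TruSeq, against 4.28% and 4.26% with TailorMix. His was higher with TruSeq, going from 2.30% and 2.81% with NEBNext to 18.5% and 18.1% with TruSeq, and was 1.25% and 1.35% with TailorMix (His TruSeq vs NEBNext, log2 fold change 2.84, SE 0.13, edgeR quasi-likelihood test). Shares are parts of a fixed total, so these types cannot move independently of Glu. As a share of the tRNA reads other than Val and His, Glu was at 54.7% and 55.2% with NEBNext, 63.0% and 56.1% with TruSeq, against 53.9% and 52.7% with TailorMix. On this base the order of the kits turned, and both TruSeq libraries lay above the other 4 (p = 0.0667 in the two-sided exact permutation test, which can give no smaller value).

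The edgeR fit over all 21 tRNA types, with total tRNA reads as library size, placed Glu lower with TruSeq than with NEBNext by a log2 fold change of -0.86 (SE 0.10, 95% interval -1.07 to -0.65, adjusted p = 2.38e-11), a direction that turned to 0.55 (adjusted p = 1.34e-05) when TMM scaling was applied. Between TailorMix and TruSeq the log2 fold change of Glu was 0.85 (SE 0.10, edgeR adjusted p = 4.43e-11). With median-of-ratios size factors in edgeR neither of these differences was called (-0.17, adjusted p = 0.183, and 0.27, adjusted p = 0.0662). Between TailorMix and NEBNext it was -0.012 with the tRNA total as library size (SE 0.10, edgeR adjusted p = 0.951), but 1.49 with TMM, under which it was called (edgeR adjusted p = 1.85e-18), and the 95% interval of the former, -0.22 to 0.20, includes differences of up to that size in either direction. The spread in this fit was estimated from all 21 types together, so these p-values do not rest on the Glu reads of 2 libraries per kit alone. The types are not replicates of a kit, so the p-values are smaller than 2 libraries per kit could give by themselves. In the fit over 49 anticodons, Glu CTC had a log2 fold change of -0.86 for TruSeq vs NEBNext too, but an edgeR adjusted p = 0.00209. The calls on Glu stand against a background in which most types passed: 85.7% of types were called between TruSeq and NEBNext, 66.7% between TailorMix and NEBNext, and 90.5% between TailorMix and TruSeq.

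Glu moved exactly as the median type did where TruSeq was one of the kits. Over the 21 types the median log2 fold change was -0.86 for TruSeq vs NEBNext and 0.85 for TailorMix vs TruSeq, and in both comparisons Glu was itself the median type. For TailorMix vs NEBNext the median was -0.11. TMM scaling moved these medians to 0.55, 0.94 and 1.40, and size factors by median of ratios moved them to -0.17, 0.27 and 0.00017, and since a scaling shifts all types alike, the place of Glu relative to the median type did not depend on it. The calls of types between TruSeq and NEBNext split into 7 higher and 11 lower with TruSeq, against 11 and 7 with TMM, 10 and 10 with median-of-ratios size factors in edgeR, and 9 and 10 in the DESeq2 Wald test. Between TailorMix and NEBNext the split was 6 higher and 8 lower against 16 and 4 with TMM, and between TailorMix and TruSeq it was 12 and 7 against 7 and 8 in the DESeq2 Wald test.

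**Figure D2:**
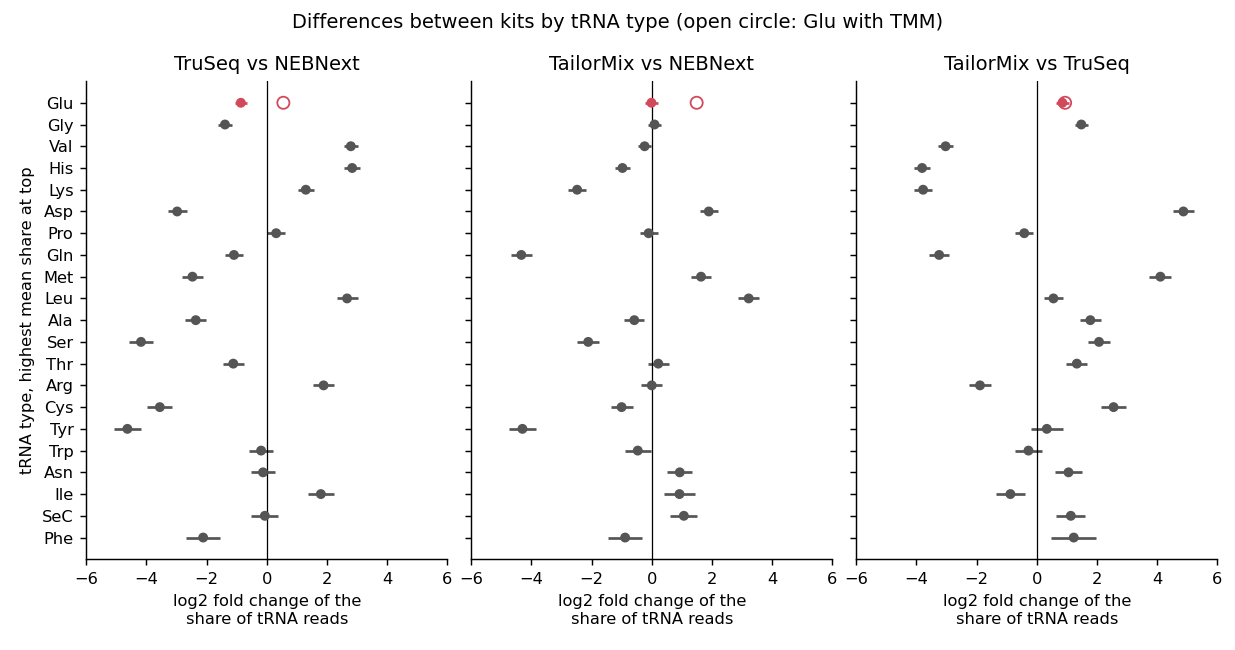
Filled points give the log2 fold change of the share of tRNA reads of each of 21 tRNA types in 3 comparisons of kits, with 95% intervals from edgeR, and Glu is in red with its value under TMM scaling as an open circle. Glu lies at -0.86 for TruSeq vs NEBNext, which turns to 0.55 with TMM, at -0.012 for TailorMix vs NEBNext, which turns to 1.49, and at 0.85 for TailorMix vs TruSeq, against 0.94.

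Ratios of Glu to single other types do not depend on the library total. Gly came next after Glu with NEBNext and TailorMix, and lay below Val, Glu and His with TruSeq. There were 1.30 and 1.34 Glu reads per Gly read with NEBNext, 2.18 and 1.64 with TruSeq, against 1.26 and 1.19 with TailorMix. The TruSeq libraries were the highest and the 3 kits did not overlap (exact permutation test on the log2 ratio, two-sided, p = 0.0667, adjusted p = 0.0933). Gly itself went from 39.2% and 37.9% of tRNA reads with NEBNext to 14.2% and 15.3% with TruSeq (edgeR log2 fold change -1.39, SE 0.11). Per Val read there were 10.8 and 9.45 Glu reads with NEBNext, 0.952 and 0.670 with TruSeq, against 11.9 and 11.7 with TailorMix (exact permutation test on the log2 ratio, two-sided, p = 0.0667, adjusted p = 0.0933). The TruSeq libraries were thus the only ones of the 6 with fewer Glu than Val reads.

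The files list glutamine tRNAs as Gln, with the anticodons CTG and TTG, apart from the glutamate tRNAs listed as Glu, and all amino acid names here are those of the files and not of the study's text, which speaks of glutamine. The study counts glutamine among the most abundant types. By the names of the files that place belongs to Glu, which ranked 1 or 2 of the types in every library, while Gln ranked 6 to 12. Gln and Asp, the tRNA of the other acidic amino acid, had few reads beside Glu. Gln held 0.581% and 0.702% of tRNA reads with NEBNext, 0.299% and 0.303% with TruSeq, against 0.0315% and 0.0320% with TailorMix. Per Gln read there were 72.2 to 103 Glu reads with NEBNext and TruSeq, compared with 1552 and 1619 with TailorMix. Asp held 0.422% and 0.510% with NEBNext, 0.0642% and 0.0543% with TruSeq, against 1.78% and 1.69% with TailorMix, so the number of Glu reads per Asp read ran from 28.7 in a TailorMix library to 482 in a TruSeq library.

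Relative to miRNAs, the small RNAs that silence mRNAs, Glu fragments were in excess in every library. There were 58.8 and 51.5 Glu reads per miRNA read with NEBNext, 9.89 and 8.09 with TruSeq, against 12.9 and 12.8 with TailorMix. NEBNext and TailorMix, which had like Glu shares of tRNA reads, thus differed by this measure, and their miRNA shares of annotated reads were 0.856% and 0.972% for NEBNext against 3.76% and 3.71% for TailorMix. With the Glu reads taken out of the total, miRNAs would have held 1.72% and 1.95% of annotated reads with NEBNext, 4.32% and 3.95% with TruSeq, against 7.32% and 7.08% with TailorMix.

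By pattern over the 6 libraries, Thr, Gly and Asn were the tRNA types most like Glu, at distances of 0.55, 0.73 and 1.00. The distance is Euclidean between log2 shares of tRNA reads after each type was centred on its mean over 6 libraries. Thr and Asn were rare, at 0.0137% to 0.0366% and 0.00124% to 0.00294% of tRNA reads, so the likeness is one of pattern and not of level.

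Both Glu anticodons were read in every library, and CTC always held most of the reads. CTC took 88.2% and 87.4% of Glu reads with NEBNext, 89.1% and 86.3% with TruSeq, against 88.6% and 88.2% with TailorMix, and TTC took the rest. The 2 TruSeq libraries spanned the values of the other 4, and no difference among kits was found (exact permutation test, two-sided, p = 0.933, adjusted p = 0.933). Their means were 87.8% ± 0.632, 87.7% ± 1.96 and 88.4% ± 0.242 (SD, n = 2 each) for NEBNext, TruSeq and TailorMix. Glu CTC was the first of all anticodons with NEBNext and TailorMix and the second with TruSeq, while Glu TTC was the third with NEBNext and TailorMix and the fifth with TruSeq.

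As shares of all tRNA reads, CTC stood at 44.9% and 44.3% with NEBNext, 27.5% and 21.6% with TruSeq, against 45.1% and 43.9% with TailorMix. TTC stood at 5.98% and 6.41% with NEBNext, 3.39% and 3.43% with TruSeq, against 5.82% and 5.85% with TailorMix. For both anticodons the TruSeq libraries lay below all others. In the fit over 49 anticodons CTC differed between TruSeq and NEBNext by a log2 fold change of -0.86 (SE 0.12, edgeR adjusted p = 0.00209) and TTC by -0.86 (SE 0.092, edgeR adjusted p = 0.000914), whereas with TMM scaling both were near zero, at -0.0091 and -0.0092, and neither was called. Between TailorMix and TruSeq the values were 0.86 for CTC (edgeR adjusted p = 0.00304) and 0.77 for TTC (edgeR adjusted p = 0.00148), and with TMM 0.084 and 0.0028, again not called. With median-of-ratios size factors in edgeR, TTC was called in both comparisons (-0.27, adjusted p = 0.0382, and 0.31, adjusted p = 0.0240) and CTC in neither (-0.28, adjusted p = 0.148, and 0.39, adjusted p = 0.0581). Between TailorMix and NEBNext neither passed the test, with -0.0023 for CTC (95% interval -0.31 to 0.31) and -0.087 for TTC (95% interval -0.32 to 0.15). Of the 49 anticodons 59.2% were called between TruSeq and NEBNext (9 higher and 20 lower, against 16 and 14 with TMM, 12 and 16 with median-of-ratios size factors and 16 and 18 in the DESeq2 Wald test), 57.1% between TailorMix and NEBNext, and 61.2% between TailorMix and TruSeq (18 and 12, against 10 and 18 with TMM).

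The anticodon most like Glu CTC in its pattern over the libraries was Glu TTC, at a distance of 0.30 among 43 anticodons with at least 10 reads in every library. Next for both came Gly GCC (0.74 from CTC and 0.75 from TTC) and Thr TGT (0.90 and 0.95).

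Reads and distinct sequences were divided differently between the anticodons. TTC, with 10.9% to 13.7% of Glu reads, held 58.2% and 58.4% of the distinct Glu sequences with NEBNext, 53.2% and 54.6% with TruSeq, against 50.8% and 50.9% with TailorMix. In numbers, TTC had 1812 and 1691 sequences with NEBNext, 1162 and 1097 with TruSeq, then 1169 and 1151 with TailorMix. The numbers for CTC were 1303 and 1203, 1023 and 911, and 1130 and 1111 in the same order. Among the Glu sequences with at least 100 reads, the TTC share was 51.7% and 51.2% with NEBNext, 46.4% and 47.3% with TruSeq, against 40.8% and 39.6% with TailorMix. The 3 kits did not overlap in either share, with NEBNext at the top. Neither share was brought to equal depth, and NEBNext was also the deepest kit. The part of depth in this order was not tested.

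**Figure D3:**
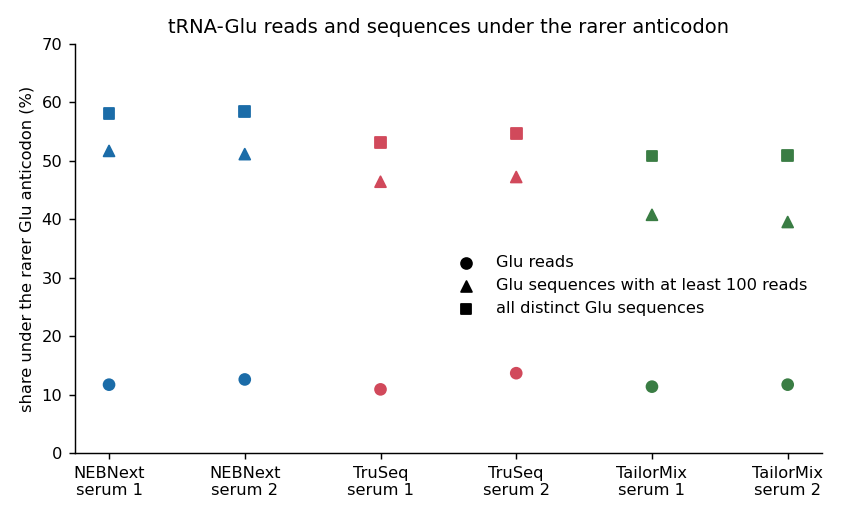
Points give, for each library, the share (%) under TTC, the rarer Glu anticodon, of Glu reads (circles), of Glu sequences with at least 100 reads (triangles) and of all distinct Glu sequences (squares), coloured by kit. TTC takes 10.9% to 13.7% of reads but 50.8% to 58.4% of the distinct sequences.

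A few sequences carried nearly all Glu reads, and the kits differed in how these leading sequences shared them. The most-read Glu sequence held 32.7% and 32.2% of Glu reads with NEBNext, 58.9% and 57.8% with TruSeq, against 40.3% and 40.4% with TailorMix. These values were close within each kit and did not overlap between kits (exact permutation test, two-sided, p = 0.0667, adjusted p = 0.0933). With NEBNext the next sequences were nearly as frequent, with 29.0% and 28.6% in the second place and 18.1% and 18.0% in the third. With TruSeq they dropped to 8.74% and 9.09%, then 6.90% and 5.63%, and with TailorMix they lay between, at 16.0% and 15.6%, then 14.9% and 14.8%. The first sequence thus had 1.13 times the reads of the second in both NEBNext libraries, 6.73 and 6.36 times with TruSeq, and 2.52 and 2.58 times with TailorMix.

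In all 6 libraries the 3 most-read Glu sequences were listed under CTC and the fourth under TTC. The leading TTC sequence accounted for 2.61% and 2.75% of Glu reads with NEBNext, 3.88% and 5.17% with TruSeq, against 4.57% and 4.64% with TailorMix. Its share of TTC reads alone was 22.2% and 21.7% with NEBNext, 35.4% and 37.7% with TruSeq, against 40.1% and 39.5% with TailorMix, so that for TTC the highest concentration was found with TailorMix and for CTC with TruSeq (66.1% and 67.0% of CTC reads in the first sequence, against 37.1% and 36.9% with NEBNext and 45.5% and 45.8% with TailorMix).

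The 10 most-read sequences together held 91.4% and 90.3% of Glu reads with NEBNext, 88.9% and 88.1% with TruSeq, against 87.2% and 87.1% with TailorMix. The kits did not overlap, although their means lay within a few percentage points (90.9%, 88.5% and 87.1%, exact permutation test, two-sided, p = 0.0667, adjusted p = 0.0933). Between 9 and 14 sequences were enough for 90% of Glu reads, and 105 to 181 for 99%. Expressed as the effective number of equally frequent sequences (the inverse of the summed squared shares), Glu had 4.41 and 4.53 with NEBNext, 2.75 and 2.85 with TruSeq, against 4.64 and 4.65 with TailorMix. TruSeq was the lowest by this measure, and NEBNext and TailorMix were close to each other although the shares of their leading ranks differed.

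**Figure D4:**
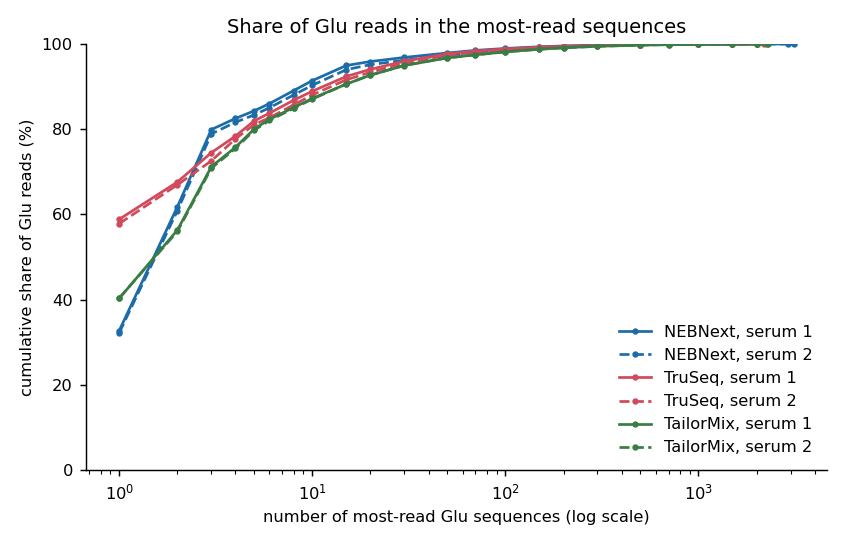
Lines give the cumulative share of Glu reads (%) against the number of most-read Glu sequences (log scale) for the 6 libraries, coloured by kit. The TruSeq lines start highest, at 58.9% and 57.8%, and the NEBNext lines start lowest, at 32.7% and 32.2%, but stand highest at 3 and at 10 sequences.

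Among all listed sequences of a library, of tRNA and other classes but without the miRNAs, Glu took 4 of the 10 most-read with NEBNext and TailorMix, and 3 and 2 with TruSeq. It took 38 of the 100 most-read in both NEBNext libraries, 27 and 25 with TruSeq, against 46 and 44 with TailorMix.

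Rare sequences made up a similar proportion of the distinct Glu sequences in all libraries. Between 33.6% and 35.7% of distinct Glu sequences were read once, and the median Glu sequence had 3 reads in every library. Of the distinct Gly sequences, 34.8% to 37.9% were read once. Sequences with fewer than 4 reads made up 52.1% to 54.9% of the distinct sequences and 0.0181% to 0.0727% of the Glu reads. At an equal depth of 2280844 Glu reads, the expected number of distinct Glu sequences was 1689 and 1817 with NEBNext, 1882 and 2008 with TruSeq, against 2226 and 2184 with TailorMix. TailorMix thus had the most and NEBNext the fewest at equal depth, without overlap (exact permutation test, two-sided, p = 0.0667, adjusted p = 0.0933). Total tRNA reads ran in the opposite order. Glu reads did not, since TruSeq serum 2 had 2280844, against 2502946 and 2517908 with TailorMix. The part of depth in this difference was not tested. At 228084 reads the kits had the same order in distinct Glu sequences, with 693 and 751, 787 and 843, and 947 and 934.

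The libraries of a kit agreed at more leading ranks in the anticodon than in the gene name listed for a sequence. Glu has 2 anticodons but 21 listed gene names, so anticodons match more readily, and this was not allowed for. At the 10 leading ranks, both libraries of a kit had the same anticodon at 7 ranks with NEBNext, 7 with TruSeq and 10 with TailorMix, but the same gene name at 2, 3 and 3. The leading sequence was listed under tRNA745-GluCTC and tRNA1007-GluCTC with NEBNext, under tRNA1013-GluCTC in both TruSeq libraries, and under tRNA1013-GluCTC and tRNA1007-GluCTC with TailorMix. The reads listed for tRNA1013-GluCTC accordingly ranged from 1.61% to 61.8% of Glu reads. Each sequence carries a single gene name although nearly identical genes share it, so reads were not compared between Glu genes, and 20 of the 21 gene names had reads in all 6 libraries. Sequences are numbered within each library, so ranks, not sequences, were set side by side here.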

How the data were processed

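Small RNA of serum was sequenced in 6 libraries. To make the files, the authors ran cutadapt 1.8.1 to remove adaptors, dropped short reads and those lacking an adaptor, filtered on base quality, mapped to GRCm38 with Bowtie 1.1.2 without mismatches and annotated them by genomic position. The deposited values are raw read counts of each distinct sequence, with its RNA class and 1 gene name, and of each miRNA, without normalization. Because mismatches were not allowed, fragments with a modified base that is misread would be lost.

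Counts were summed by tRNA type and by anticodon (Python 3.11.15, pandas 2.3.3, numpy 2.4.6, scipy 1.17.1). Kits were compared by exact permutation tests over the 15 groupings of 6 libraries into 3 pairs, with Benjamini-Hochberg adjustment over 7 tests, and by edgeR 4.0.16 (R 4.3.3; glmQLFit and glmQLFTest on all 6 libraries, total tRNA reads as library size, no filter, adjustment over all features, threshold 0.05). Counting error alone is covered by the intervals and by the floor of 3 counts, since reads carry no molecular identifiers. Scripts were tested on simulated counts. Shares are parts of a total, so calls in different types are not independent.

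Named were Glu, its anticodons, its 10 most-read sequences per library, Gly, Val, His, Gln and Asp, and the 3 types or anticodons most like Glu. Members and lists were chosen with earlier results of these data known. Alternatives were the replicate number as a block, TMM, median-of-ratios size factors, DESeq2 1.42.0, a filter of 10 reads in 2 libraries, sequences with at least 4 reads, other denominators, pooled libraries, a lower equal depth, the 4 libraries of a comparison and each library left out. No sequence of tRNA-Glu was used here.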

Additional observations from a re-analysis of the deposited data

How the results depend on the processing

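Results on shares of reads and sequences kept their direction in the alternatives run, except that without Val and His reads the Glu share of NEBNext minus TruSeq was -4.63 percentage points instead of 22.8, and that the CTC share of Glu reads, which did not differ between kits, ranged from -1.25 to 1.52 points (NEBNext minus TruSeq) with single libraries left out and was -0.058 points with libraries pooled. The fold changes depended on scaling. For TruSeq vs NEBNext, Glu was at 0.55 with TMM and at -0.17 with median-of-ratios size factors, in edgeR and in DESeq2, the latter without a call (adjusted p = 0.183 and 0.195). For TailorMix vs NEBNext it was at 1.49 with TMM (called, adjusted p = 1.85e-18) and 0.094 with the size factors in both tools, and for TailorMix vs TruSeq at 0.27 in both, again without a call (adjusted p = 0.0662 and 0.0592). Glu CTC stood at -0.0091, 0.075 and 0.084 with TMM in the 3 comparisons, at -0.28, 0.12 and 0.39 with size factors in edgeR (adjusted p = 0.148, 0.537 and 0.0581), and at -0.28, 0.12 and 0.39 with DESeq2 (adjusted p = 0.113, 0.541 and 0.0203), so that only the last kept a call. Glu TTC stood at -0.0092 (TruSeq vs NEBNext) and 0.0028 (TailorMix vs TruSeq) with TMM, and at 0.035 and 0.036 (TailorMix vs NEBNext) with size factors in edgeR and in DESeq2, under which it kept its calls for TruSeq vs NEBNext (-0.27 in both, adjusted p = 0.0382 and 3.53e-20) and TailorMix vs TruSeq (0.31 in both, adjusted p = 0.0240 and 2.85e-25). These scalings differ by construction in the reference total. With size factors the fold changes of TTC were alike in both tools, and close to those of CTC for TruSeq vs NEBNext. The adjusted p-values of TTC were nevertheless far smaller in DESeq2 than in edgeR, on the same counts of 2 libraries per kit. How each tool estimates and tests the spread was not examined. The counts of called types and anticodons stayed within 1.5 times under each alternative run.

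With single libraries left out, Glu ranged from -1.02 to -0.72 for TruSeq vs NEBNext, from -0.030 to 0.0053 for TailorMix vs NEBNext and from 0.70 to 1.01 for TailorMix vs TruSeq, and Glu CTC from -0.023 to 0.018 for TailorMix vs NEBNext. With the replicate number as a block Glu was at -0.87, -0.013 and 0.85 in the 3 comparisons and no call on Glu or its anticodons changed. The exact permutation test of the Glu share gave p = 0.333 with the block, where the smallest possible p is 0.167. Libraries of the same number deviated together only weakly (Pearson r = 0.20, 0.051 and 0.12 between kits over 21 types), so the number was not taken as a pairing. With 2 libraries per kit an exact test cannot reach 0.05, and depth was not the limit.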
